A study of Rattus norvegicus with 3 samples.

Results

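The homeobox and T-box patterning factors described here are transcription factors that lay out the body axis, the limbs and the organs of the embryo. Members were all probe sets whose single gene symbol in the platform's probe-to-gene table begins with Hoxa to Hoxd, Alx, Prrx, Meis, Pbx, Tbx, Pitx, Msx, Dlx, Lhx, Irx, Emx or Pax followed by a number, together with Shox2. This gave 83 of 31042 probe sets, which stand for 63 of 14217 named genes. The rule reads gene symbols and no signals. Gene expression was measured in tendon stem/progenitor cells (TSPCs) cultured from the Achilles tendon of Sprague-Dawley rats aged 1 day (TSPCs-1d), 7 days (TSPCs-7d) and 56 days (TSPCs-56d). Total RNA of passage 2 cells was hybridized to Affymetrix Rat Genome 230 2.0 arrays, on which several short probes, together called a probe set, report each transcript, with 1 array per age. The cells of every age were polyclonal cultures grown in low-glucose medium with serum, and tissue from at least 2 individuals was mixed for each culture. With 1 array per age, the number of arrays limits the precision, no difference has a replicate check, and a difference of age and a difference between single cultures cannot be told apart. Fewer cells of a type and less RNA per cell cannot be told apart either.

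A homeodomain is a small protein fold that binds short DNA sites with a TAAT core, and the T-box is a separate DNA-binding fold. Hox genes lie in 4 clusters, HOXA to HOXD, and are numbered by paralogue group, so that low numbers are used towards the head and high numbers towards the tail and the tip of the limb. In limb mesenchyme, from which limb tendons arise, HOXA and HOXD genes mark position along the limb, and Pitx1 and Tbx4 mark the hindlimb, where the Achilles tendon lies, whereas Tbx5 marks the forelimb. Fibroblasts of adult connective tissue are known to keep a part of this positional Hox code in culture.

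The sequences upstream of *Alx1*, which had the lowest ratios to TSPCs-1d among the members, and of the neighbouring genes *Hoxd11*, *Hoxd10*, *Hoxd9* and *Hoxd8*, of which *Hoxd11* was higher and the others were lower in TSPCs-56d, are shown with the homeodomain core TAAT (ATTA on the other strand) in capitals. Each is the stretch of 250 bases before the start site, 5′ to 3′ on the strand of the gene, from RefSeq on build GRCr8. *Alx1* lies on chr7:40063779-40064028 (minus strand), and on the plus strand *Hoxd11* lies on chr3:79992144-79992393, *Hoxd10* on chr3:80001697-80001946, *Hoxd9* on chr3:80007756-80008005 and *Hoxd8* on chr3:80014973-80015222.
Alx1: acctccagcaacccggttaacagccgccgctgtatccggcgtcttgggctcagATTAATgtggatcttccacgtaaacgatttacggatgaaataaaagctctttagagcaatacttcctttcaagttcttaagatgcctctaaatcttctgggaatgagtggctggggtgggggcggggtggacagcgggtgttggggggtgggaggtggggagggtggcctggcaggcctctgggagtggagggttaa
Hoxd11: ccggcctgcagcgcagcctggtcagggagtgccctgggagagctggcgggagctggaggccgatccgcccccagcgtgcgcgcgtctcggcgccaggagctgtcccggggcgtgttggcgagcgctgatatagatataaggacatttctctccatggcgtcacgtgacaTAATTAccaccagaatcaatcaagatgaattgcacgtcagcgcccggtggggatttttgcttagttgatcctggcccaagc
Hoxd10: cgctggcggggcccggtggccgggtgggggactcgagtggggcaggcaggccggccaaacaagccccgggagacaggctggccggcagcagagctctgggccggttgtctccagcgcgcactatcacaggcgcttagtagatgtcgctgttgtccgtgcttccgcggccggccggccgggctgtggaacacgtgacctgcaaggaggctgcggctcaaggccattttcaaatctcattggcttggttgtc
Hoxd9: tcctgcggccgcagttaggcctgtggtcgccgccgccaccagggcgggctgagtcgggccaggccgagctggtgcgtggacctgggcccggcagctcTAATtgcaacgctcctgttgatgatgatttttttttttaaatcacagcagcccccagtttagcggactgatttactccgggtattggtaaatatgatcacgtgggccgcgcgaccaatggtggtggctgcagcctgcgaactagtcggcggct
Hoxd8: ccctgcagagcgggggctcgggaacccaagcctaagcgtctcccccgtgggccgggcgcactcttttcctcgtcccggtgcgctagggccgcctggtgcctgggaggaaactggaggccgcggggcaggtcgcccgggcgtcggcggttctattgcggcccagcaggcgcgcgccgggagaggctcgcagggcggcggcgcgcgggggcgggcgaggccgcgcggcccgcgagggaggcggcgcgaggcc
The core was found at 2 places before *Alx1*, where they overlap, at 2 before *Hoxd11*, also overlapping, at 1 before *Hoxd9*, and at none before *Hoxd10* and *Hoxd8*. The GC content was 54.8% for *Alx1*, 61.2% for *Hoxd11*, 67.2% for *Hoxd10*, 60.0% for *Hoxd9* and 78.8% for *Hoxd8*. The table held 43 promoters of 41 of the 63 genes. Among them, 15 (34.9%) held the core, against 57.0% of all 33469 promoters in a window of the same length. The Meis site TGACAG, searched on both strands, was in 5 (11.6%) of the 43 promoters, against 15.8% of all. The T-box site AGGTGTGA, also searched on both strands, was in 0 of the 43, against 0.959% of all. Neither was in the 5 windows shown. A match describes the letters alone, and no match says only that the letters are not in this window.

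In age order, the arrays had a median signal of 107, 108 and 114 intensity units, so the signals were used as deposited. A signal is called dim under 48.9, which is the 25th percentile over all arrays, and 110.1 was the median of all signals. The tendon label was checked against markers. Of 7 measured markers of tendon and TSPCs, 7 had a mean signal above the median, but not all were level. In age order, *Scx* had 2255, 2578 and 2569, *Tnmd* had 543, 351 and 158, and *Tnc* had 5280, 7303 and 11185. Of the measured markers, 0 of 5 for skeletal muscle, 0 of 4 for endothelium and 0 of 4 for keratinocytes lay above the median, and their summed signals were 180 to 221, 212 to 230 and 160 to 208. Of the 5 blood markers 3 lay above it, and they summed to 419 to 459, with the leukocyte marker *Ptprc* dim on every array. Of the 3 Schwann cell markers 2 lay above it, and they summed to 2039, 1773 and 2606, with *S100b* at 530, 535 and 1000.4, *Ncam1* at 1459, 1180.5 and 1541, and *Sox10* at 64.4 at most. Of the 3 bone markers 2 lay above it, and the 3 summed to 380, 219 and 216. The difference lay mostly in *Dmp1*, with 230, 75.1 and 69.1, whereas *Ibsp* had 115, 110 and 116 and *Bglap* was dim on every array. In TSPCs-56d, the summed signal of 5 pericyte and smooth muscle markers was 15946, against 12803 in TSPCs-1d and 10444 in TSPCs-7d, and that of 4 cartilage markers was 3099, against 8801 in TSPCs-1d and 8426 in TSPCs-7d. Most of these differences lay in *Myh11*, with 2186, 1671 and 5067, and *Acan*, with 8588, 8224 and 2874, whereas the median log2 ratio of TSPCs-56d over TSPCs-1d was 0.04 for the pericyte and smooth muscle list and 0.03 for the cartilage list. The part of these cell type genes in the ratios below was not tested.

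Most patterning factors differed little between the ages. Of the 83 probe sets, 78 (94.0%) stayed within 2-fold in all comparisons, against 94.5% of all probe sets, and 59 (71.1%) stayed within 1.5-fold, against 81.5% of all. In TSPCs-7d compared to TSPCs-1d, 0 members were over 2-fold higher, against a background of 1.36%, and 2 (2.41%) were over 2-fold lower, against 0.989% of all probe sets. These were *Alx1* and a probe set of *Irx3*. In TSPCs-56d compared to TSPCs-1d, 1 member (1.20%) was higher, *Emx2*, against 1.52% of all probe sets, and 3 (3.61%) were lower, *Alx1*, *Hoxd10* and *Irx3*, against 1.80%. In TSPCs-56d compared to TSPCs-7d, 1 member (1.20%) was higher, *Emx2*, against 1.31% of all, and 2 (2.41%) were lower, *Hoxd10* and *Dlx5*, against 1.68%. These shares rest on 0 to 3 probe sets each, and those of the higher members lay below the background. The 3 comparisons share arrays, so that a deviating array enters 2 of them.

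**Figure D1:**
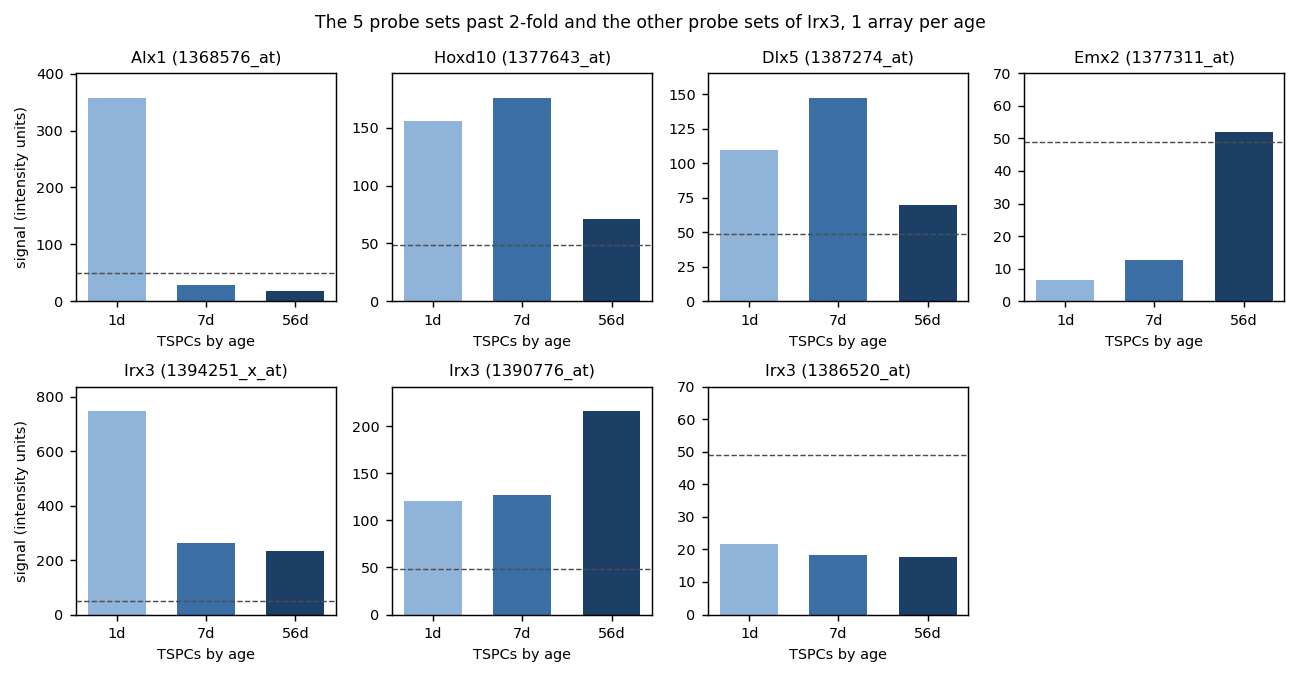
Signals (intensity units on a linear axis that starts at 0) of the 5 member probe sets past 2-fold in any comparison and of the other probe sets of Irx3, 1 bar per array in order of age, with a dashed line at 48.9, the 25th percentile of all signals. Alx1 stands above the line in TSPCs-1d only, Emx2 reaches 52.0 in TSPCs-56d, and the Irx3 probe sets have different orders of age.

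Smaller ratios leaned towards TSPCs-56d. The median log2 ratio of the members was 0.02 for TSPCs-7d over TSPCs-1d, 0.16 for TSPCs-56d over TSPCs-1d and 0.09 for TSPCs-56d over TSPCs-7d, against 0.01, 0.05 and 0.05 for all probe sets in this order. The highest of the 3 signals was in TSPCs-1d for 19 members (22.9%, against 29.2% of all probe sets), in TSPCs-7d for 17 (20.5%, against 27.5%) and in TSPCs-56d for 47 (56.6%, against 43.3%). With every array scaled to its own median, the counts were 25 (30.1%, against 36.7%), 23 (27.7%, against 31.5%) and 35 (42.2%, against 31.8%). The median size of the log2 ratios, regardless of sign, was 0.16, 0.31 and 0.29 in the members, against 0.17, 0.22 and 0.21 in all probe sets. For the 40 members above the median of mean signals it was 0.15, 0.40 and 0.39, against 0.16, 0.20 and 0.20 for all such probe sets. The members thus spread like all probe sets between TSPCs-7d and TSPCs-1d, and more widely in both comparisons of TSPCs-56d. Disagreement between probe sets was gauged from 1714 genes with a pair of bright probe sets. Both probe sets of a pair read the same RNA on the same arrays. Their spread therefore leaves out variation between cultures and arrays, which could not be estimated. Within a pair, log2 ratios differed by a median of 0.14, 0.17 and 0.14, with a 90th percentile of 0.39, 0.53 and 0.44.

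**Figure D2:**
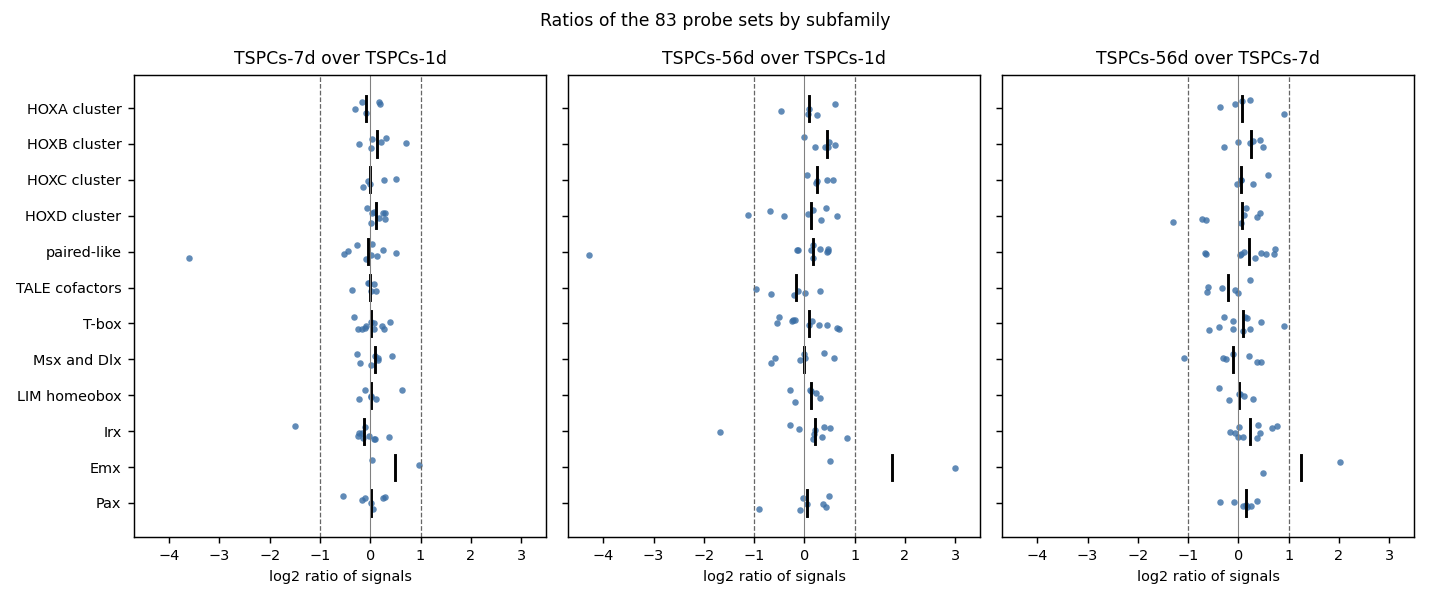
Log2 ratios of the 83 member probe sets (1 point each, horizontal axis) by subfamily, for TSPCs-7d over TSPCs-1d, TSPCs-56d over TSPCs-1d and TSPCs-56d over TSPCs-7d, with a black bar at each subfamily's median and dashed lines at the 2-fold cutoffs. All but 5 probe sets lie between the dashed lines in all panels, and the points of TSPCs-56d lie further apart, with a median size of 0.31 and 0.29, than those of TSPCs-7d over TSPCs-1d, with 0.16.

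Of the 83 probe sets, 17 were dim on all arrays and 35 lay above the median of all signals on all arrays. Of the dim probe sets, 6 were additional ones of *Hoxd3*, *Irx1*, *Irx3*, *Irx4*, *Lhx5* and *Pax8*, and 11 stand for genes that had no brighter one, namely *Hoxa7*, *Hoxb13*, *Hoxc8*, *Hoxd1*, *Pitx3*, *Tbx5*, *Lhx4*, *Lhx9*, *Pax2*, *Pax4* and *Pax6*, and ratios between their dim signals carry no fold change. By the probe set of highest mean signal, 32 of the 63 genes lay above the median of mean signals. RefSeq holds 39 further symbols of the same families for which no member probe set was found, among them *Hoxa13*, *Hoxd13*, *Hoxc10*, *Pax3* and *Pax7*, and these genes were not analysed here.

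**Figure D3:**
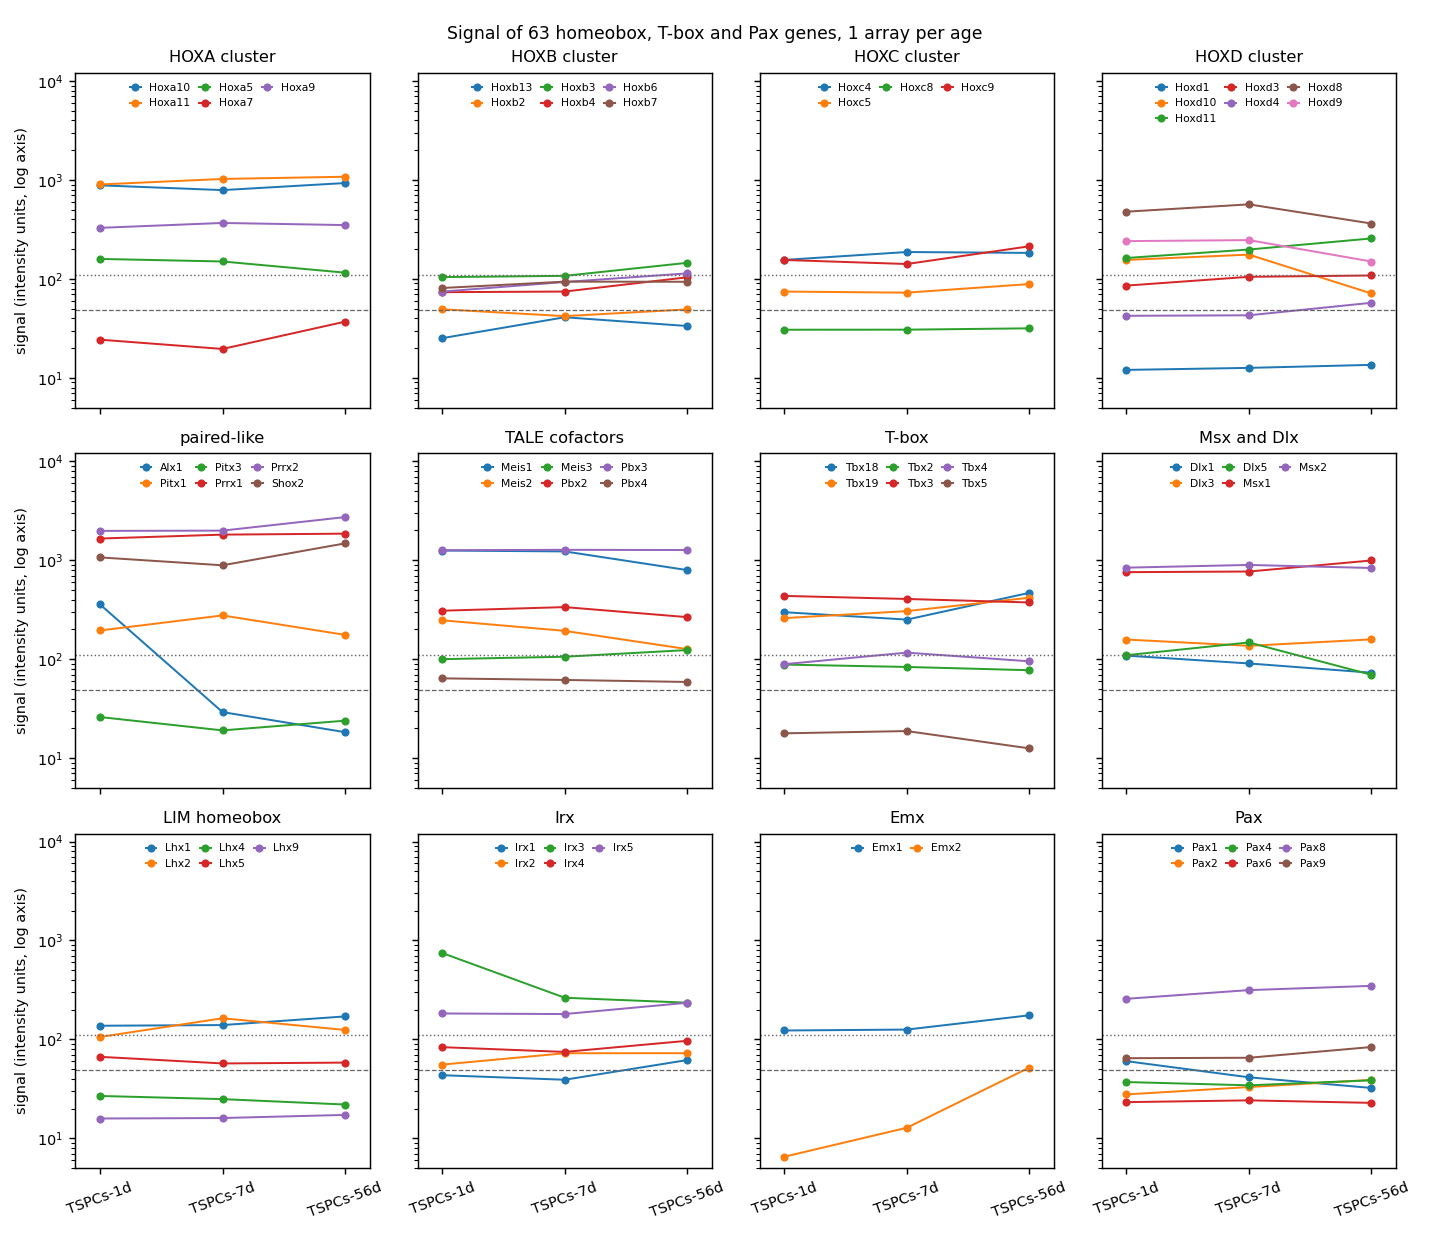
Array signal (intensity units, log axis) of the 63 genes, from TSPCs-1d on the left to TSPCs-56d on the right, each by its probe set of highest mean signal, in 12 subfamilies, with a dashed line at the 25th percentile (48.9) and a dotted line at the median (110.1) of all signals. Most lines are close to level, whereas Alx1 and the plotted probe set of Irx3 are highest in TSPCs-1d and Emx2 is highest in TSPCs-56d. Another probe set of Irx3, not plotted, was highest in TSPCs-56d, so the line gives no direction for Irx3.

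The 22 Hox genes were measured by 24 probe sets, of which 11 lay above the median of mean signals. These were mostly posterior genes: 7 of 8 probe sets of paralogue groups 9 to 13, against 2 of 7 of groups 5 to 8 and 2 of 9 of groups 1 to 4. Probe sets bind with different strength, so that these counts describe the probe sets and do not rank the genes.

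In the HOXA cluster, *Hoxa11*, which is needed for the lower segment of the limb, had signals of 901, 1025 and 1079 in order of age, as in all lists of 3 signals that follow. *Hoxa10*, a posterior gene with roles in the thigh and the uterus, had 884, 791 and 932. *Hoxa9*, best known from blood progenitors, had 329, 368 and 350. These genes were bright at every age and differed by at most 1.20-fold between any pair of arrays. *Hoxa5*, a gene of the neck and lung, had 159, 150 and 116, and was 1.38-fold lower in TSPCs-56d relative to TSPCs-1d and 1.30-fold lower relative to TSPCs-7d. *Hoxa7* was dim on all arrays, between 19.6 and 37.0.

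The HOXD cluster held the widest range of ratios among the Hox clusters in both comparisons of TSPCs-56d. *Hoxd10*, a posterior gene of limb and lumbar spinal cord, had signals of 156, 176 and 71.3. It was therefore similar in the younger cells and 2.18-fold lower in TSPCs-56d relative to TSPCs-1d and 2.47-fold lower relative to TSPCs-7d, with log2 ratios of -1.13 and -1.31. With 32 added to each signal, the difference from TSPCs-1d was no longer past 2-fold. *Hoxd9*, which acts in the upper limb segment, had 241, 247 and 150, with log2 ratios of -0.69 for TSPCs-56d over TSPCs-1d and -0.72 for TSPCs-56d over TSPCs-7d. *Hoxd8*, a central gene, had 479, 567 and 363, with log2 ratios of -0.40 and -0.64. These 3 genes follow each other along chromosome 3, and TSPCs-56d had the lowest signal of each. *Hoxd11*, a partner of *Hoxa11* in the lower limb segment and the next gene on the other side of *Hoxd10*, had 163, 198 and 257. It was instead highest in TSPCs-56d, with log2 ratios of 0.66 for TSPCs-56d over TSPCs-1d and 0.37 for TSPCs-56d over TSPCs-7d.

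Further along the cluster, *Hoxd4*, of the neck region, had signals of 42.4, 42.9 and 57.5, and was at least 1.18-fold higher in TSPCs-56d compared to both younger cultures. *Hoxd3* had 85.7, 105 and 108 on 1 probe set and was dim on the other, and *Hoxd1* was dim on all arrays. The brighter probe set of *Hoxd3* did not share the lower signal of *Hoxd8* to *Hoxd10* in TSPCs-56d. *Hoxd4*, dim in both younger cultures, and *Hoxd1* were too dim to show a lower signal there. The genes from *Hoxd11* to *Hoxd8* were singled out after their values were seen. Each is read by 1 probe set, and *Hoxd12* and *Hoxd13*, at the end of the cluster, were not analysed here.

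**Figure D4:**
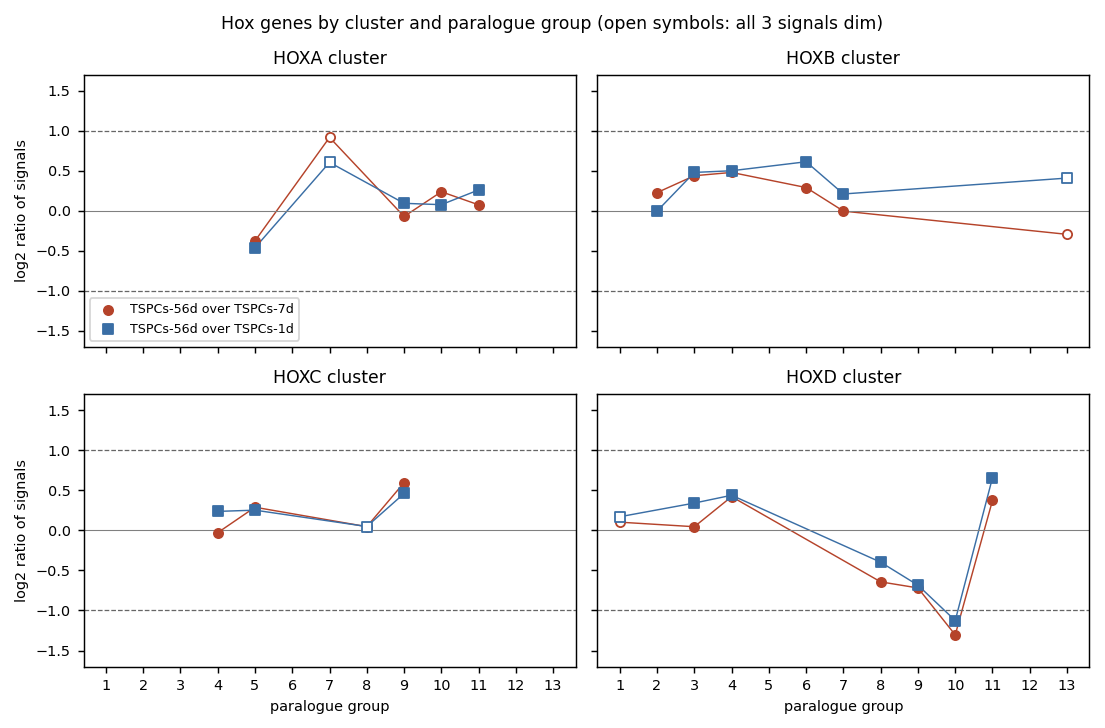
Log2 ratios of TSPCs-56d over TSPCs-7d (circles) and of TSPCs-56d over TSPCs-1d (squares) for the Hox genes (vertical axis), by paralogue group (horizontal axis, 1 to 13) in the 4 clusters, with dashed lines at the 2-fold cutoffs and open symbols for genes dim on all arrays. In the HOXD cluster, Hoxd8, Hoxd9 and Hoxd10 lie below 0 in both comparisons, with a lowest value of -1.31, and Hoxd11 lies above 0.

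The HOXB and HOXC genes were dimmer as probe sets, with 1 of 6 and 2 of 5 above the median of mean signals, and none of them was past 2-fold in any comparison. *Hoxb3* and *Hoxb4*, genes of the hindbrain and neck, had signals of 104, 108 and 146, and of 73.5, 74.6 and 104. *Hoxb6* had 74.5, 93.2 and 114, and was 1.53-fold higher in TSPCs-56d relative to TSPCs-1d. *Hoxb7* had 81.0, 94.0 and 93.7. Of the 6 HOXB probe sets, 5 had a log2 ratio of TSPCs-56d over TSPCs-1d above 0, against 56.7% of all probe sets as deposited. The HOXB median was 0.44. This median and all HOXB counts include *Hoxb13*, which was dim on all arrays. After division by the array medians, 5 of 6 were also above 0, where the median of all probe sets was -0.04. For TSPCs-56d over TSPCs-7d, 4 of 6 were above 0, against 56.3% of all probe sets as deposited. It was also 4 of 6 after the division, where the median of all probe sets was -0.03. *Hoxb2* stayed near the dim level, with 49.4, 42.1 and 49.3, and *Hoxb13*, a gene of the tail and prostate, was dim.

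*Hoxc9*, a gene of the thoracic region, had signals of 156, 142 and 214, and was 1.38-fold higher in TSPCs-56d relative to TSPCs-1d and 1.51-fold higher relative to TSPCs-7d. *Hoxc4* had 156, 187 and 183, and its other probe set had 44.2, 62.8 and 65.2. *Hoxc5* had 74.6, 72.7 and 88.8, and *Hoxc8* was dim, between 30.7 and 31.7. The log2 ratio of TSPCs-56d over TSPCs-1d was above 0 for 5 of 5 HOXC probe sets, against 56.7% of all probe sets as deposited. After division by the array medians it was above 0 for 4 of 5. These counts include both probe sets of *Hoxc4* and the dim *Hoxc8*. For TSPCs-56d over TSPCs-7d, 4 of 5 were above 0, against 56.3% of all probe sets as deposited, but 2 of 5 after the division.

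The paired-like genes held several bright and level signals, and also the member furthest below its TSPCs-1d signal. *Prrx1* and *Prrx2*, which mark limb and connective tissue mesenchyme, had 1657, 1815 and 1856, and 1979, 1992 and 2729. *Prrx2* was therefore 1.38-fold higher in TSPCs-56d relative to TSPCs-1d, whereas its dimmer probe set, with 58.0, 69.4 and 71.5, gave a log2 ratio of 0.30. The other probe set of *Prrx1*, with 372, 380 and 409, was as level as the first.

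*Shox2*, which is needed for the upper limb segment and for joint tissues, had signals of 1068, 889 and 1480. It was 1.39-fold higher in TSPCs-56d relative to TSPCs-1d and 1.67-fold higher relative to TSPCs-7d. Its other probe sets had 214, 149 and 241, and 177, 168 and 244. All of its 3 probe sets had their lowest signal in TSPCs-7d and their highest in TSPCs-56d, with log2 ratios of 0.54 to 0.74 for TSPCs-56d over TSPCs-7d.

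*Alx1*, which acts in the mesenchyme of the face and is also used in the limb bud, had the lowest log2 ratios among all members in both comparisons with TSPCs-1d. Its signal was 29.2 in TSPCs-7d, against 358 in TSPCs-1d, a log2 ratio of -3.62, and 18.3 in TSPCs-56d, a log2 ratio of -4.29. As both older cells gave dim signals, the difference was at least 7.32-fold in either comparison. On the arrays it is read by 1 probe set. The paper reports that quantitative PCR bore out the array expression of *Alx1*, and those values were not used here.

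*Pitx1*, which sets hindlimb identity, had signals of 195, 277 and 176, above the median of all signals at every age. It was 1.42-fold higher in TSPCs-7d relative to TSPCs-1d, and 1.57-fold lower in TSPCs-56d relative to TSPCs-7d. *Tbx4*, its target in the hindlimb bud, had 89.0, 117 and 95.2, with the highest signal in TSPCs-7d as well. *Tbx5*, the forelimb factor, was dim on all arrays, with 17.8, 18.8 and 12.6. *Pitx3*, of the lens and the midbrain, was also dim.

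Among the other T-box genes, *Tbx18*, known from the epicardium, the somites and the mural cells of vessels, had signals of 299, 251 and 468. It was 1.57-fold higher in TSPCs-56d relative to TSPCs-1d and 1.86-fold higher relative to TSPCs-7d, the largest difference in the T-box subfamily apart from dim signals. *Tbx19*, known as the factor that turns on the ACTH precursor in the pituitary, had 260, 306 and 418, and was 1.61-fold higher in TSPCs-56d relative to TSPCs-1d. Both are read by 1 probe set. The summed signal of the pericyte and smooth muscle markers had the same order of the ages as *Tbx18*, as did *Acta2*, *Myh11* and *Des* singly. *Rgs5* was instead highest in TSPCs-1d, with 58.6, 36.6 and 41.2. *Pdgfrb*, with 1464, 1280 and 1463, was level between TSPCs-1d and TSPCs-56d. The relation of these markers to *Tbx18* was not tested.

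*Tbx3*, a repressor with roles in limb and mammary gland, had signals of 436, 406 and 374 on its brightest probe set. The other 3 probe sets had 102, 107 and 125, then 117, 93.3 and 98.9, and 60.8, 73.7 and 83.1. The probe sets of *Tbx3* thus differed in direction, and no order of the ages could be read from them. The closely related *Tbx2* had 88.2, 83.5 and 77.4 on its brightest probe set and 89.1, 79.8 and 61.0 on the next, but 68.3, 68.5 and 75.4 on the last.

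The Meis and Pbx genes, called the TALE cofactors here, encode homeobox proteins that bind DNA together with Hox proteins. They were the subfamily with the largest share of probe sets below a log2 ratio of 0 for TSPCs-56d over TSPCs-7d. *Meis1*, which marks the upper limb segment, had signals of 1253, 1228 and 795, and was 1.58-fold lower in TSPCs-56d relative to TSPCs-1d and 1.54-fold lower relative to TSPCs-7d. *Meis2*, a close relative, had 247, 193 and 126. It was 1.28-fold lower in TSPCs-7d relative to TSPCs-1d and 1.96-fold lower in TSPCs-56d relative to TSPCs-1d, and lay past 2-fold after division by the array medians (2.09-fold) and after quantile normalization (2.06-fold). *Meis3* had the opposite order, with 100, 106 and 124.

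*Pbx3* was the most level member, with signals of 1264, 1274 and 1268. *Pbx2* had 309, 336 and 266, and *Pbx4* had 64.0, 61.7 and 58.9. In the Meis and Pbx genes, the log2 ratio of TSPCs-56d over TSPCs-7d was below 0 for 5 of 6 probe sets. Of all 31042 probe sets, 13572 were below 0 as deposited. The Meis and Pbx median was -0.20, against 0.05 for all probe sets. After division by the array medians, 5 of 6 were also below 0. For TSPCs-56d over TSPCs-1d the Meis and Pbx median was -0.17, with 4 of 6 below 0, against 13428 of all 31042 as deposited. After division, 5 of 6 were below 0. Each of these genes is read by 1 probe set.

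*Msx1* and *Msx2*, homeobox genes turned on by BMP signals in limb and skull, were bright at all ages. *Msx1* had signals of 758, 769 and 994, and was 1.31-fold higher in TSPCs-56d relative to TSPCs-1d. *Msx2* had 841, 897 and 835, and its other probe sets had 200, 223 and 188, and 159, 177 and 240. For TSPCs-56d over TSPCs-1d, the last of these had a log2 ratio of 0.59, against -0.01 and -0.09 for the others, so that the probe sets of *Msx2* did not give 1 direction.

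*Dlx5*, a factor of bone formation, had signals of 110, 148 and 69.5. It was 2.12-fold lower in TSPCs-56d relative to TSPCs-7d, and 1.58-fold lower relative to TSPCs-1d. The call of *Dlx5* was lost when 32 was added to each signal. *Dlx3*, of teeth and skin, had 158, 136 and 159. *Dlx1*, of forebrain neurons, had 109, 90.5 and 73.0, with its lowest signal in TSPCs-56d as well.

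*Irx3*, which has a part in the early hindlimb bud of the mouse, gave conflicting readings. Its brightest probe set had 747, 264 and 235, which is 2.83-fold lower in TSPCs-7d and 3.18-fold lower in TSPCs-56d relative to TSPCs-1d. A second probe set had 121, 127 and 216, and was 1.79-fold higher in TSPCs-56d relative to TSPCs-1d. The third was dim, between 17.6 and 21.6. The brightest one belongs to a class of probe sets whose probes may also match other transcripts, so no direction is given for *Irx3*.

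*Irx5*, the neighbour of *Irx3* in the genome and a partner in limb and heart, had signals of 183, 180 and 235. Its other probe set had 135, 114 and 152, and both were highest in TSPCs-56d. *Irx4*, a gene of the heart ventricle, had 83.5, 74.7 and 96.8. *Irx2* had 55.7, 72.5 and 72.6, and *Irx1* had 43.5, 39.1 and 61.8 on 1 probe set and was dim on the other. Of the 10 Irx probe sets, 7 were highest in TSPCs-56d, against 43.3% of all probe sets. The 7 include both probe sets of *Irx5*, both of *Irx4*, of which the second is dim on all arrays, and the second of *Irx3*. *Irx2* counts among them by 72.6 against 72.5.

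The remaining subfamilies are the LIM homeobox, Emx and Pax genes. Among the LIM homeobox genes, *Lhx1*, of the kidney and the early embryo, had signals of 137, 140 and 171. *Lhx2*, which acts in limb outgrowth, the eye and hair follicles, had 106, 164 and 125, and was 1.55-fold higher in TSPCs-7d relative to TSPCs-1d. *Lhx5*, of the forebrain, had 66.7, 57.2 and 58.3, and *Lhx4* and *Lhx9* were dim. *Emx1*, a gene of the cerebral cortex, had 123, 126 and 175, and was 1.42-fold higher in TSPCs-56d relative to TSPCs-1d.

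*Emx2*, which acts in the cortex, the urogenital tract and the shoulder blade, had 6.52, 12.8 and 52.0. Its ratios were past 2-fold in both comparisons of TSPCs-56d, but its highest signal lay just above the dim level, so that it was at least 1.06-fold higher in either. Of the Pax genes, *Pax8*, of thyroid and kidney, had 257, 315 and 348, although its other probe set was dim on all arrays. *Pax9*, of the sclerotome, had 64.6, 65.2 and 83.8. *Pax1*, its close relative, had 60.3, 41.4 and 32.3, at least 1.23-fold lower in TSPCs-7d and in TSPCs-56d relative to TSPCs-1d. *Pax4*, of the pancreas, was dim, between 34.4 and 38.6, like *Pax2* and *Pax6*.

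Of the 63 genes, 49 were read by 1 probe set and 14 by more, which gave 20 pairs of a brightest probe set with another of the same gene. The signs of the log2 ratio were the same in 12 of the 20 pairs in each of the comparisons. The pairs differed by a median of 0.23 for TSPCs-7d over TSPCs-1d, 0.32 for TSPCs-56d over TSPCs-1d and 0.20 for TSPCs-56d over TSPCs-7d. In the 8 pairs in which both probe sets lay above the median of mean signals, 6, 5 and 5 had the same sign in this order.

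**Figure D5:**
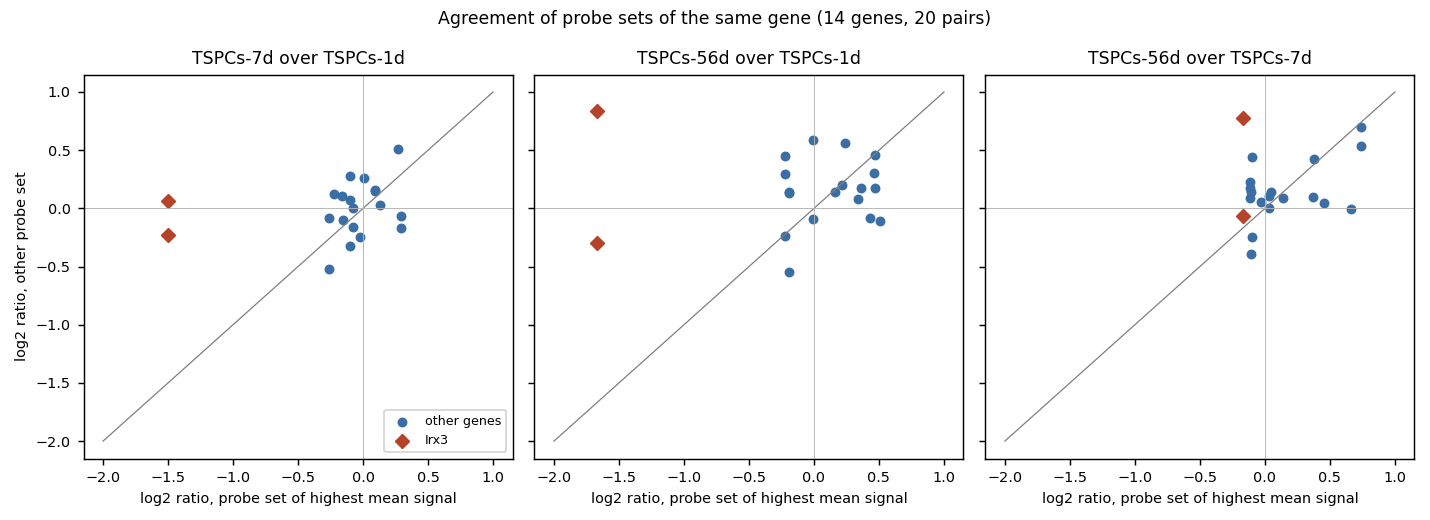
Log2 ratio of a gene's other probe set (vertical axis) against that of its probe set of highest mean signal (horizontal axis) for the 20 pairs of 14 genes, 1 panel per comparison, with the line of equality and Irx3 as diamonds. In each panel 12 of 20 pairs share their sign, and an Irx3 pair with log2 ratios of 0.84 and -1.67 for TSPCs-56d over TSPCs-1d lies furthest from the line.

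Other genes around these factors were read from lists. Of 48 other homeobox genes, 34 were measured. In TSPCs-7d compared to TSPCs-1d, 1 of them was over 2-fold higher, against 1.87% of all genes, and 0 were lower, against 1.08%. This was *Zfhx4*, a large zinc finger homeobox gene, with 108, 256 and 162 in age order, and 2 of its 3 other probe sets had the same order of the ages. In TSPCs-56d compared to TSPCs-1d, 1 was higher, against 2.00% of all genes, and 1 was lower, against 1.77%. The higher one was *Zeb2*, a repressor of epithelial genes, with 372, 481 and 763. Its 4 other probe sets had log2 ratios of 1.03, 0.66, 0.26 and -0.06 for TSPCs-56d over TSPCs-1d, so that 1 of them repeated the call. The lower one was *Tgif2*, a TALE repressor of TGF-beta targets, with 332, 293 and 149. In TSPCs-56d compared to TSPCs-7d, 0 were higher, against 1.72%, and 0 were lower, against 2.10%. The median log2 ratio was 0.02 for TSPCs-7d over TSPCs-1d and 0.11 for TSPCs-56d over TSPCs-1d, against 0.01 and 0.06 for all genes, and for TSPCs-56d over TSPCs-7d it was -9.6e-06, against 0.05.

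Of 46 signals and partners of limb patterning, 37 were measured, and their medians were 0.05, 0.07 and -0.01, against 0.01, 0.06 and 0.05 for all genes. In TSPCs-7d compared to TSPCs-1d, 2 were higher and 0 were lower, against 1.87% and 1.08% of all genes. These were *Rarb*, a receptor of retinoic acid that is itself turned on by it, with 67.4, 139 and 183, and *Aldh1a3*, whose signals were dim. Relative to TSPCs-1d, *Rarb* and *Osr2* were higher in TSPCs-56d, and *Eya1*, *Dach1* and *Bmp2* were lower, against 2.00% and 1.77% of all genes. Relative to TSPCs-7d, *Osr2* and *Grem1* were higher in TSPCs-56d, and *Eya1*, *Dach1* and *Bmp4* were lower, against 1.72% and 2.10%.

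*Eya1*, a transcriptional coactivator and phosphatase, had 993, 814 and 87.0, and was 11.4-fold lower in TSPCs-56d relative to TSPCs-1d. *Dach1*, a partner of *Eya1* in a network of eye, muscle and limb, had 467, 327 and 78.7, and was 5.94-fold lower in TSPCs-56d relative to TSPCs-1d. *Bmp4*, a ligand that acts upstream of *Msx1* and *Msx2*, had 929, 1703 and 479, and *Bmp2*, a related ligand, had 324, 172 and 125. *Grem1*, a secreted inhibitor of both, had 6279, 4359 and 9821, so that the ligand *Bmp4* was highest and its inhibitor lowest in TSPCs-7d. *Osr2*, a zinc finger gene of joints and palate, had 128, 155 and 311, with its highest signal in TSPCs-56d. The 2 brightest probe sets of *Msx2* were, like *Bmp4*, highest in TSPCs-7d and lowest in TSPCs-56d, but with log2 ratios of only -0.25 to 0.16. *Msx1* and the remaining probe set of *Msx2* were highest in TSPCs-56d. A relation of *Bmp4* to *Msx1* and *Msx2* was not tested.

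Polycomb and Trithorax proteins keep Hox genes silent or active through cell division. Of 35 such regulators, 31 were measured, with medians of 0.08, 0.02 and -0.08, against 0.01, 0.06 and 0.05 for all genes. In TSPCs-7d compared to TSPCs-1d, 3 were higher and 0 were lower, in TSPCs-56d compared to TSPCs-1d 0 were past 2-fold, and in TSPCs-56d compared to TSPCs-7d 0 were higher and 2 were lower. Of all genes, 1.87% were higher and 1.08% lower in TSPCs-7d compared to TSPCs-1d, 2.00% and 1.77% in TSPCs-56d compared to TSPCs-1d, and 1.72% and 2.10% in TSPCs-56d compared to TSPCs-7d. *Ezh2*, the histone methyltransferase of Polycomb, had 278, 631 and 259, and a second probe set had 212, 484 and 206, but the third had 78.5, 103 and 118, with its highest signal in TSPCs-56d. *Gmnn*, which binds Hox and Polycomb proteins and blocks DNA replication origins, had 238, 659 and 307. *Phf19*, a Polycomb partner, had 102, 212 and 175. The brightest probe sets of *Ezh2*, *Gmnn* and *Phf19* were highest in TSPCs-7d. Of the 83 member probe sets, 17 (20.5%) were highest there, against 27.5% of all probe sets. A relation of these regulators to the members was not tested.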

How the data were processed

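Total RNA of cultured TSPCs was measured on 3 arrays, 1 per age. The labels give 2 µg of RNA and the MessageAmp II kit, whereas the methods name a smaller amount and the MessageAmp Premier kit. The authors' methods name MAS5 and RMA for normalization, but in the submitters' processing notes only MAS5 appears. The combination behind the values is not given in the sources used here. The deposited values are intensity on a linear scale from 1 upward for each of 31042 probe sets, which the authors had made comparable between arrays. Detection calls and raw probe values were not used here, so a dim signal is defined by the 25th percentile and not by background. How the authors corrected the background can change the ratios of dim probe sets most.

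The signals were used as deposited. A fold change was the ratio of 2 arrays, counted as higher over 2 and as lower under 0.5. Where 1 signal was dim, it was raised to 48.9 and the fold is written as "at least", and no fold is given between dim signals. Gene names came from the platform's table, which can be old, and a gene was represented by its probe set of highest mean signal. The gene IDs of 62 of the 63 genes are in the RefSeq table of GRCr8, all but that of *Hoxa11*. No test was made, and no p-value can be computed. The members, the lists (other homeobox genes, limb patterning, Polycomb and Trithorax, cell type markers) and the alternatives were chosen with earlier results of these data known. Genes named with values are those past 2-fold with the brighter signal above the median, the 10 of highest mean signal, up to 4 of highest mean signal per subfamily, the limb position genes, and up to 4 per other list, comparison and direction. Further genes were named to account for every member.

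The alternatives were division by the array medians, quantile normalization, a floor at the 25th percentile or the median, a pseudocount of 32, probe sets above the median of mean signals only, no shared probe sets, genes in place of probe sets, cutoffs of 1.5-fold and 3-fold, and a geometric mean of all probe sets per gene. The calculation was tested on simulated data. Calculations ran in Python 3.11.15 (numpy 2.4.6, pandas 2.3.3) and plots in matplotlib 3.10.9.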

Additional observations from a re-analysis of the deposited data

How the results depend on the processing

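Of 84 counts and medians under alternatives, 65 stayed within 1.5 times (counts) or 0.1 (medians) of the value as reported. With a cutoff of 1.5-fold, 3 members were higher in TSPCs-7d relative to TSPCs-1d (0 at 2-fold). In TSPCs-56d, 8 were higher (1 at 2-fold) and 8 lower (3) relative to TSPCs-1d, and 8 were higher (1) and 8 lower (2) relative to TSPCs-7d. At 3-fold, 1 was lower in TSPCs-7d relative to TSPCs-1d and 0 were lower in TSPCs-56d relative to TSPCs-7d. Shares of all probe sets at these cutoffs are not given per comparison. Within 1.5-fold in all comparisons were 59 members (71.1%), against 81.5% of all probe sets. At 1.5-fold, ratios between dim signals count for *Hoxb13* and *Emx2* in TSPCs-7d relative to TSPCs-1d. They also count for *Hoxa7* in both comparisons of TSPCs-56d, and for *Alx1* in TSPCs-56d relative to TSPCs-7d. In TSPCs-56d relative to TSPCs-1d, 1 *Irx3* probe set was higher and another lower. *Emx2* was lost as a higher member, leaving 0, in TSPCs-56d compared to TSPCs-1d with a floor at the 25th percentile, with a floor at the median and among probe sets above the median of mean signals, and in TSPCs-56d compared to TSPCs-7d with these and with a pseudocount of 32. In TSPCs-56d compared to TSPCs-7d, the lower members were 0 with a floor at the median (*Hoxd10* and *Dlx5* lost), and 1 with the pseudocount and among the brighter probe sets (*Dlx5* lost). *Hoxd10* was also lost in TSPCs-56d compared to TSPCs-1d with the pseudocount, with a floor at the median and at 3-fold. Without shared probe sets, *Irx3* was lost and 1 member was lower in TSPCs-7d relative to TSPCs-1d. With a floor at the median, which makes both signals of most dim members equal, the median log2 ratio for TSPCs-56d over TSPCs-1d was 0, against 0.16 as reported. *Alx1* was over 2-fold lower in both comparisons with TSPCs-1d under every alternative. Of 1098 log2 ratios of named genes under alternatives, 34 moved by more than the 90th percentile of probe set differences (0.39 for TSPCs-7d over TSPCs-1d, 0.53 for TSPCs-56d over TSPCs-1d and 0.44 for TSPCs-56d over TSPCs-7d), and of these 18 were with a floor at the median, 8 with a floor at the 25th percentile, 5 with the pseudocount, 3 with the geometric mean over probe sets and 0 with another scaling. The sign changed in 27 of the 1098, 15 with division by the array medians, 5 with quantile normalization and 7 with the geometric mean, in log2 ratios of 0.22 or less in size as deposited. No ratio past 2-fold changed its sign.

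No paired analysis was possible because each age has 1 array, and for the same reason no replicate could be left out. Each call rests on 1 probe set on 1 array per age. Precision is limited by the number of arrays, and for dim probe sets by the signal over background, which was not measured here. Division by the array medians moved the median log2 ratio of all probe sets by -0.02 for TSPCs-7d over TSPCs-1d, -0.10 for TSPCs-56d over TSPCs-1d and -0.08 for TSPCs-56d over TSPCs-7d.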
